A study of Mus musculus with 10 samples.

Results

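Natural killer (NK) cells and cytotoxic T cells recognise targets through activating and inhibitory receptors, many of them C-type lectin-like proteins encoded side by side in the natural killer gene complex, and kill by releasing granules that hold perforin and granzymes. The transcription factors T-bet, encoded by Tbx21, and Eomesodermin, encoded by Eomes, direct the development of both cell types, and T-bet is also made by some dendritic cells. Dendritic cells are antigen-presenting cells that prime T cells. The genes described here are 10 of this program: the receptor genes Klrk1, Klrd1, Klre1 and Klrb1c, the granule genes Gzma, Gzmb, Prf1 and Nkg7, and the transcription factor genes Tbx21 and Eomes. They were picked by symbol because their levels had been seen to differ between the genotypes in these libraries. Their genotype differences are therefore given as a description, without p-values, and the calls they receive in the fit across all genes are counted only beside the background. All 10 were among the 19178 genes of the count table and among the 18248 tested.

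Poly(A) RNA of mouse dendritic cells was sequenced in 10 libraries. The 5 libraries called deficient below came from cells deficient in Ptbp1, which encodes an RNA-binding protein that controls splicing, and 5 came from wild-type (WT) cells. Both groups are labelled 8 to 10 weeks. The labels give neither the tissue nor the sex, do not say how or in which cells Ptbp1 was removed, and do not say that each library is a separate mouse, so p-values measure the spread between these libraries and that spread may be technical. Gene counts ranged from 61759378 to 92697815 in the deficient libraries and from 50516163 to 66153758 in WT. Levels are CPM, the share of a library's gene counts scaled by TMM factors, with the SD over 5 libraries. Ptbp1 itself had 73.2 to 75.7 CPM in the deficient libraries and 259 to 312 CPM in WT. Summed dendritic cell markers (12 genes) reached 27487 to 30037 CPM and 23556 to 28636 CPM, and the class II genes Cd74 and H2-Ab1 held most of these sums. Among the other markers, Flt3 had 539 to 591 CPM in the deficient libraries and 508 to 649 CPM in WT. Zbtb46 had 292 to 343 CPM and 221 to 303 CPM, and Itgax 2067 to 2317 CPM and 1294 to 1649 CPM. Xcr1 (322 to 441 and 94.4 to 135 CPM), Clec9a (291 to 400 and 181 to 245) and Irf8 (1087 to 1637 and 624 to 836) were higher without overlap. Sirpa (535 to 650 and 851 to 949 CPM) and Itgam (40.7 to 48.7 and 50.1 to 55.4) were lower without overlap, and Irf4 and Batf3 overlapped. The part of kinds of dendritic cell in the levels of the 10 genes was not tested. WT replicate 5 stood apart from the other WT libraries: its summed B cell, macrophage, plasmacytoid dendritic cell, neutrophil and T cell markers were each above those of the 4 other WT libraries, and results that rest on it are given with and without it. WT replicate 1 came second in summed macrophage markers (2534 CPM, where WT replicates 2 to 4 had 1381 to 1424), and deficient replicates 1 and 2 (470.5 and 454 CPM) had lower sums than deficient replicates 3 to 5 (921 to 1056 CPM).

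Start regions are shown for Klrk1 and 3 granule genes, whose levels did not overlap between the genotypes, so that their letters can be compared. Klre1 and Tbx21 also did not overlap, and their windows were searched but are not printed. The windows are from RefSeq on GRCm38.p6, run from 250 bases before to 50 bases after the annotated start, and are written 5′ to 3′ on the strand of the gene. Capitals mark matches, on either strand, to 3 motifs that were searched: the T-box core GGTGTGA, the RUNX core TGTGGTT and the ETS core CAGGAAG. The Klrk1 window (chr6:129623815-129624114, minus strand), the Gzma window (chr13:113100932-113101231, minus strand), the Gzmb window (chr14:56262285-56262584, minus strand) and the Nkg7 window (chr7:43436888-43437187, plus strand) read as follows.
Klrk1: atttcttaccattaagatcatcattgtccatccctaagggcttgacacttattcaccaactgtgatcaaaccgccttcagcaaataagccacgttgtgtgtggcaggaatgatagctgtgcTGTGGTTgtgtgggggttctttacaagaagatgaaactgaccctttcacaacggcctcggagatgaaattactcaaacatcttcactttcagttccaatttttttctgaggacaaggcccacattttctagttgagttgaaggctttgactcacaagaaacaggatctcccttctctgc
Gzma: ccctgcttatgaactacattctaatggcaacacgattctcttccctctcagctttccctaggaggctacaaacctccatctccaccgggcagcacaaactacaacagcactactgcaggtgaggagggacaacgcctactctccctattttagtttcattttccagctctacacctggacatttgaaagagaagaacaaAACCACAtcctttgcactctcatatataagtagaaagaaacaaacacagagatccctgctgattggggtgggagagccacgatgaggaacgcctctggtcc
Gzmb: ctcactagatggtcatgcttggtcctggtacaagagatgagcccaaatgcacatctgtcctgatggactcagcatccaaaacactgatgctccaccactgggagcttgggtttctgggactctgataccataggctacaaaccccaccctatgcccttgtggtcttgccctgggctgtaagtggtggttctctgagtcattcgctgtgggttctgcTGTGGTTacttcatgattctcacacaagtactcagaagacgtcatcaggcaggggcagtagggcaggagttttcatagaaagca
Nkg7: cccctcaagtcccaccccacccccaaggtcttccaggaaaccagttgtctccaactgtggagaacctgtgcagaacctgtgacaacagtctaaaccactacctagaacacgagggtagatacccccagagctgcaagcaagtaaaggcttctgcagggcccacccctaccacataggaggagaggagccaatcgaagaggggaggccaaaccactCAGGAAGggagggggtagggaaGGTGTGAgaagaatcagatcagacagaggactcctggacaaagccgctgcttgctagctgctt

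In these letters the RUNX core began 129 bases before the start of Klrk1 and 34 bases before that of Gzmb, and its reverse complement AACCACA began 51 bases before that of Gzma. The T-box core began 13 bases and the ETS core 35 bases before the start of Nkg7. No printed match overlapped another. RefSeq windows were held for 9 of the 10 genes, 10 windows in all, since Klre1 had 2. Across the 9 genes the RUNX core was found in 4 (Klrk1, Gzma, Gzmb and 1 of the windows of Klre1), beside 5.27% of 32851 mouse windows of this length. The ETS core was found in 3 (Prf1, Nkg7 and Tbx21), beside 13.3% of windows, and the T-box core in 1 (Nkg7), beside 3.98%. The windows of Klrb1c and Eomes held none of these letters. A match is a stretch of letters and not a binding site.

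Among the receptors, Klrk1 encodes NKG2D, an activating receptor of NK and CD8 T cells that binds stress-induced ligands. Klrk1 stood at 100.4, 105, 96.9, 96.5 and 124 CPM in deficient replicates 1 to 5 and at 35.7, 33.5, 29.3, 34.2 and 37.8 CPM in WT replicates 1 to 5. The groups did not overlap, and the highest library of each genotype was 1.29 times its lowest. The means were 105 ± 11.4 and 34.1 ± 3.15 CPM, a log2 fold change of 1.62 (SE 0.083). In the deposited FPKM values Klrk1 stood at 55.8 ± 7.16 in the deficient libraries and 19.2 ± 2.60 in WT.

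Klrd1 encodes CD94, which pairs with NKG2 chains to make receptors for the non-classical class I molecule Qa-1, and it lies 11548 bp from Klrk1 on the other strand of chromosome 6. Its levels were 86.8, 90.0, 69.6, 61.9 and 75.2 CPM in the deficient libraries and 89.7, 106, 100.3, 96.4 and 77.9 CPM in WT. The groups overlapped: deficient replicates 1 and 2 were above WT replicate 5, and deficient replicate 2 was also above WT replicate 1. The means were 76.7 ± 11.7 and 94.0 ± 10.7 CPM (log2 fold change -0.29, SE 0.107), so Klrd1 was the 1 gene of the 10 with the lower mean in the deficient group. The ratio of Klrd1 to Klrk1 was 0.607 to 0.865 in the deficient libraries and 2.06 to 3.42 in WT, with no overlap.

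Klre1 encodes another lectin-like receptor of NK cells, and the gene lies next to Klrd1. Klre1 stood at 5.77, 5.83, 6.05, 5.71 and 8.62 CPM in the deficient libraries and 1.33, 1.34, 1.18, 1.63 and 3.71 CPM in WT. The groups did not overlap, and replicate 5 was the highest library in each. The means were 6.40 ± 1.25 and 1.84 ± 1.06 CPM (log2 fold change 1.80, SE 0.298).

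Klrb1c encodes NK1.1, the surface antigen by which mouse NK cells of some strains are usually recognised. Klrb1c stood at 3.34, 1.81, 1.61, 1.57 and 4.31 CPM in the deficient libraries and 0.453, 0.484, 0.196, 0.118 and 3.72 CPM in WT. WT replicate 5 was above 4 of the deficient libraries, while WT replicates 1 to 4 were below all 5. The means were 2.53 ± 1.24 and 0.995 ± 1.53 CPM (log2 fold change 1.34, SE 0.767), and the log2 fold change was 3.02 without WT replicate 5.

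**Figure D1:**
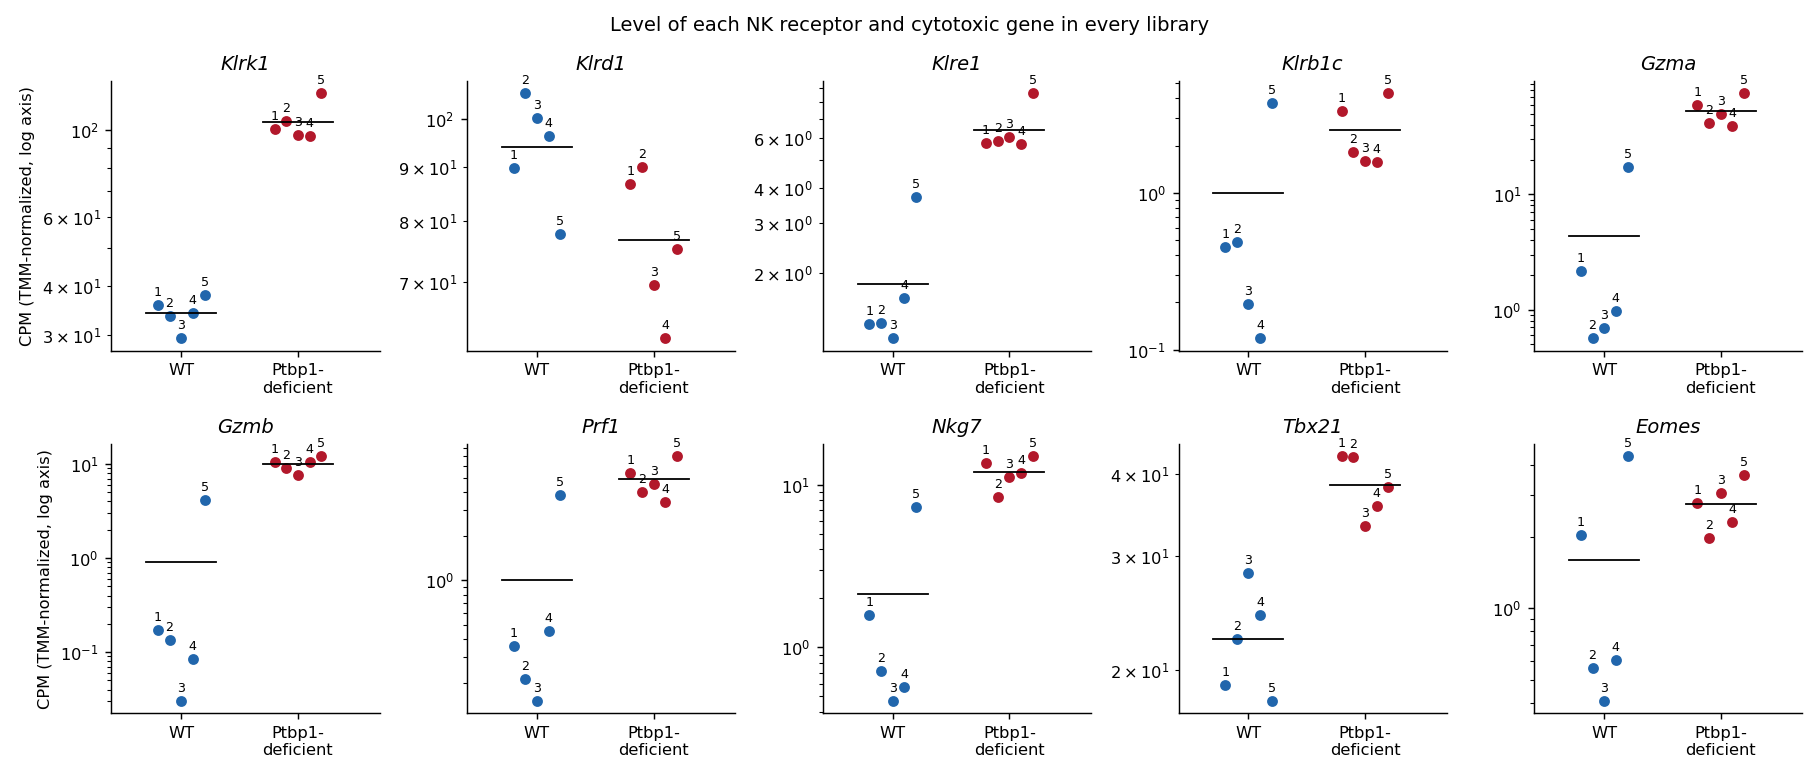
TMM-normalized CPM of the 10 genes in each library, on a log axis that differs between panels. Points are libraries numbered by replicate, WT in blue and Ptbp1-deficient in red, and bars are arithmetic group means. Klrk1, Klre1, Gzma, Gzmb, Nkg7 and Tbx21 do not overlap between genotypes, and WT replicate 5 is the highest WT library for 8 genes.

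The 4 granule genes had the largest log2 fold changes of the 10, and in each of them WT replicate 5 stood far above the other WT libraries. Gzma encodes granzyme A, a tryptase of cytotoxic granules. Gzma stood at 59.8, 41.3, 50.0, 39.4 and 75.1 CPM in the deficient libraries and 2.15, 0.562, 0.694, 0.975 and 17.2 CPM in WT. All 5 deficient libraries were above WT replicate 5, which was itself 15.7 times the mean of the 4 other WT libraries. The means were 53.1 ± 14.7 and 4.31 ± 7.22 CPM (log2 fold change 3.61, SE 0.812), and the log2 fold change was 5.57 without WT replicate 5.

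Gzmb encodes granzyme B, the protease that starts apoptosis in a target cell. Gzmb stood at 10.6, 9.06, 7.65, 10.6 and 12.2 CPM in the deficient libraries. In WT it was at 0.172, 0.136, 0.0302, 0.0840 and 4.17 CPM, from 11, 7, 2, 5 and 261 counts. Thus 4 WT libraries held few Gzmb reads and the other held a level 39.6 times their mean. The means were 10.0 ± 1.72 and 0.918 ± 1.82 CPM, with a log2 fold change of 3.43 (SE 0.940) that was 6.57 without WT replicate 5.

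Prf1 encodes perforin, the pore-forming protein that lets granzymes enter the target. Prf1 stood at 5.36, 4.02, 4.56, 3.42 and 7.03 CPM in the deficient libraries and 0.359, 0.213, 0.151, 0.454 and 3.82 CPM in WT. Deficient replicate 4 was below WT replicate 5, and no other pair of libraries crossed. The means were 4.88 ± 1.40 and 0.999 ± 1.58 CPM (log2 fold change 2.28, SE 0.740, and 4.04 without WT replicate 5).

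Nkg7 encodes a membrane protein of cytotoxic granules. Nkg7 stood at 13.5, 8.45, 11.2, 11.7 and 15.0 CPM in the deficient libraries and 1.59, 0.717, 0.467, 0.571 and 7.29 CPM in WT. The groups did not overlap, although deficient replicate 2 lay close to WT replicate 5. The means were 12.0 ± 2.49 and 2.13 ± 2.92 CPM (log2 fold change 2.49, SE 0.657, and 3.83 without WT replicate 5).

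The T-box genes differed from each other. Tbx21 stood at 42.7, 42.5, 33.3, 35.7 and 38.2 CPM in the deficient libraries and 19.0, 22.3, 28.2, 24.3 and 17.9 CPM in WT. The groups did not overlap, and WT replicate 5 was the lowest WT library. The means were 38.5 ± 4.14 and 22.4 ± 4.17 CPM (log2 fold change 0.78, SE 0.120), and the deposited values were 13.7 ± 1.67 and 8.36 ± 1.43 FPKM.

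Eomes stood at 2.78, 1.97, 3.06, 2.32 and 3.63 CPM in the deficient libraries and 2.05, 0.562, 0.407, 0.605 and 4.38 CPM in WT. WT replicate 5 was above every deficient library and WT replicate 1 was above deficient replicate 2, so the groups overlapped. The means were 2.75 ± 0.645 and 1.60 ± 1.69 CPM (log2 fold change 0.78, SE 0.561). Without WT replicate 5 the log2 fold change was 1.60, and without WT replicates 1 and 5 it was 2.40.

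By edgeR's quasi-likelihood test, 7 of the 10 genes had an adjusted p under 0.05 with a higher level in the deficient libraries, and the background for such calls was 21.9% of all genes tested. Klrd1 was called lower, beside 23.1% of all genes, and Klrb1c and Eomes were not called. The 6 genes with no overlap and a higher deficient level stood beside 17.2% of all genes. Because the genes were picked with this contrast known, nothing is read from these counts. Left out singly, WT replicates 1, 2 and 4 and deficient replicate 5 each took Prf1 past 0.05. The call of Klrd1 was lost when any 1 of WT replicates 1 to 4 or of deficient replicates 3 to 5 was left out. Without WT replicates 1 and 5 together, 9 of the 10 were called higher, where 21.7% of all genes were, and Klrd1 was called lower, where 22.3% were.

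Per kb of exon, the scale on which different genes can be ranked, Klrd1 had the highest level in both genotypes. Klrd1 stood at 59.9 ± 9.14 CPM per kb in the deficient libraries and 73.4 ± 8.39 in WT. In the deficient group Gzma came next at 52.8 ± 14.6 CPM per kb and did not differ from Klrd1 beyond their spread. It was followed by Tbx21 at 15.5 ± 1.66, Klrk1 at 14.6 ± 1.59 and Nkg7 at 13.1 ± 2.72 CPM per kb, 3 levels that also lay within each other's spread. Gzmb had 6.97 ± 1.20 CPM per kb, Prf1 1.89 ± 0.542 and Klre1 1.83 ± 0.357, the last pair within their spread. Klrb1c and Eomes were lowest at 0.854 ± 0.418 and 0.662 ± 0.155 CPM per kb, again within their spread.

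In WT the levels per kb ran in another order. Tbx21 followed Klrd1 at 8.99 ± 1.68 CPM per kb, then Klrk1 at 4.75 ± 0.438. Gzma at 4.29 ± 7.18 and Nkg7 at 2.33 ± 3.19 CPM per kb could not be ordered, because 1 library set their SD. The other 5 genes were between 0.336 CPM per kb (Klrb1c) and 0.640 CPM per kb (Gzmb) and did not differ beyond their spread with WT replicate 5 included. In WT replicates 1 to 4 Klre1 had 0.337 to 0.467 CPM per kb and Gzmb had 0.0210 to 0.120, with no overlap, so Gzmb was then below Klre1. The place of Klrk1 depends on the length used: its annotated exons together cover 7183 bp. In the deposited FPKM values, 55.8 for Klrk1 was close to the 66.9 ± 11.5 of Klrd1 in the deficient libraries, whereas in WT 19.2 stood against 86.2 ± 9.17. Klrk1, Klrd1 and Tbx21 were the 3 of the 10 genes that the FPKM table lists.

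Within a genotype, the 10 genes fell into 2 sets by which library was high. Klrk1, Klre1, Klrb1c, Gzma, Gzmb, Prf1, Nkg7 and Eomes had their highest WT level in WT replicate 5 and their highest deficient level in deficient replicate 5. Among all genes, 26.5% had their highest WT level in WT replicate 5. WT replicate 1 came second in WT for 5 of them (Klrk1, Gzma, Gzmb, Nkg7 and Eomes), beside 19.4% of all genes. Klrd1 and Tbx21 instead had their lowest WT level there, and deficient replicates 1 and 2 were their highest deficient libraries. Without those 2 libraries the log2 fold change was -0.45 for Klrd1 and 0.68 for Tbx21. Deficient replicate 4 was the lowest deficient library for 6 genes, and WT replicate 3 was the lowest WT library for 6. A share over all genes was computed only for WT replicate 5 as highest and WT replicate 1 as second. Nothing is therefore read from the counts for the other positions. The libraries form 2 groups of 5, so no correlation across them is given.

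The size of the excess in WT replicate 5 also divided them. For 7 genes its level was more than 2 times the mean of the other WT libraries, where 6.12% of all genes passed that ratio. The ratio was 39.6 for Gzmb, 15.7 for Gzma, 13.0 for Prf1, 11.9 for Klrb1c, 8.71 for Nkg7, 4.84 for Eomes and 2.71 for Klre1. For the most abundant receptor and for T-bet it was near or below 1: 1.14 for Klrk1, 0.794 for Klrd1 and 0.764 for Tbx21. On the log2 CPM scale, deficient replicate 5 lay 0.25 (Klrk1) to 0.89 (Klrb1c) above its genotype mean for the set of 8, and WT replicate 5 lay 0.15 (Klrk1) to 4.08 (Gzmb) above its own.

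**Figure D2:**
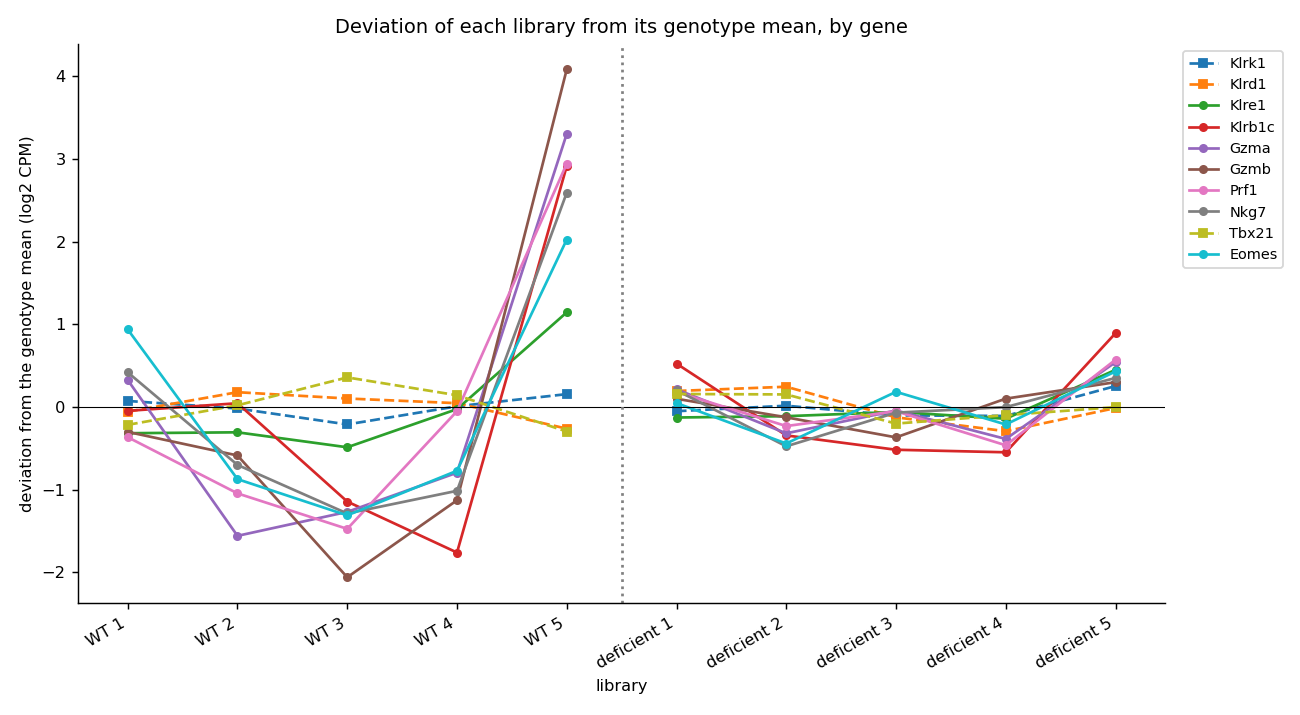
Deviation of each library from its genotype mean, in log2 CPM, for the 10 genes. Lines join the values of 1 gene and the order of libraries along the axis has no meaning. Dashed lines with squares are Klrk1, Klrd1 and Tbx21, which stay within 0.36 of their mean in WT. The other 7 genes peak in WT replicate 5.

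Set against WT replicates 1 to 4, the deficient mean was 95.0 times higher for Gzmb, where those 4 libraries held 2 to 11 counts each. It was 48.5 times for Gzma, 16.6 for Prf1, 14.3 for Nkg7, 8.09 for Klrb1c, 4.68 for Klre1, 3.15 for Klrk1, 3.04 for Eomes, 1.64 for Tbx21 and 0.782 for Klrd1. Set against WT replicate 5 alone, the deficient mean was 3.09 times for Gzma, 2.76 for Klrk1, 2.40 for Gzmb, 2.15 for Tbx21, 1.73 for Klre1, 1.65 for Nkg7 and 1.28 for Prf1. It was 0.985 times for Klrd1 and below WT replicate 5 for Klrb1c (0.679 times) and Eomes (0.628 times). The deficient libraries thus exceeded WT replicate 5 in Gzma, Gzmb, Klrk1 and Tbx21 by more than in the genes Prf1 and Nkg7. NK1.1 and Eomes stood higher in WT replicate 5 than in the deficient mean, and Klrd1 was nearly level.

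**Figure D3:**
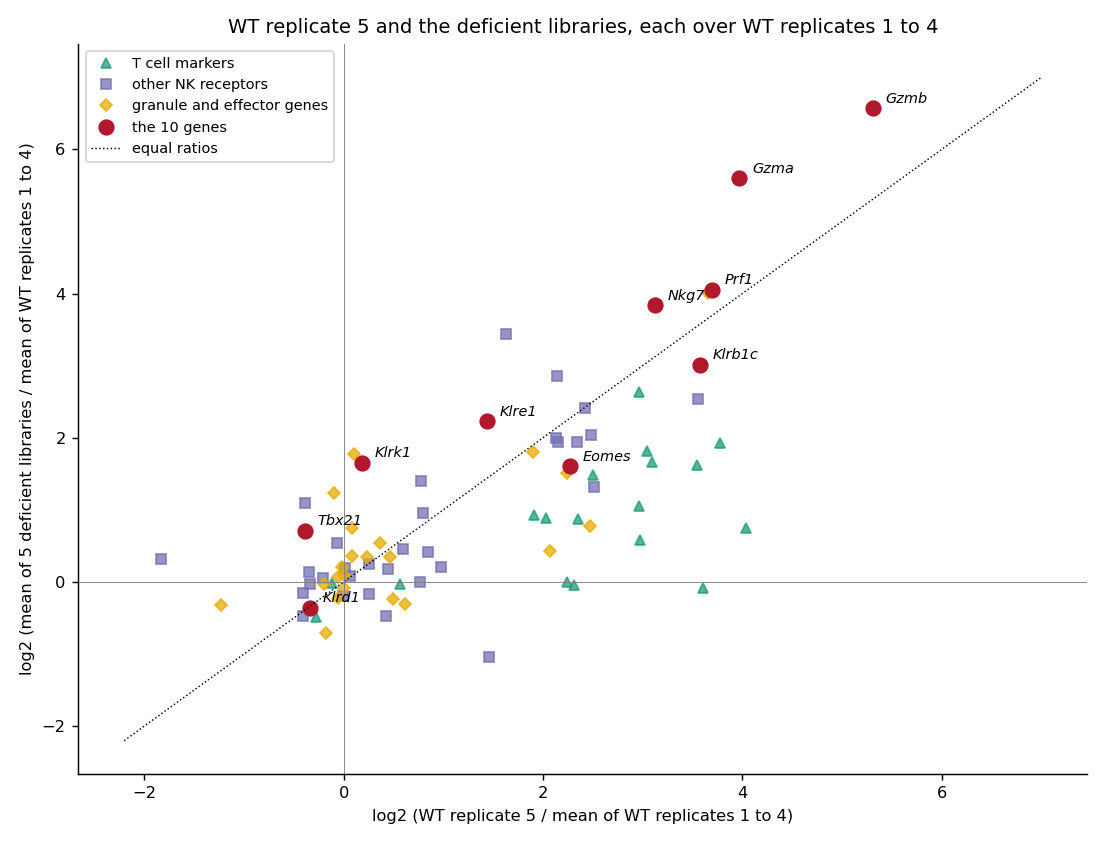
Each point is a gene, with the log2 ratio of WT replicate 5 to the mean of WT replicates 1 to 4 on the x axis and the log2 ratio of the deficient mean to the same WT mean on the y axis. Both axes share that denominator, so points tend toward the dotted line of equal ratios. Gzma, Gzmb, Klrk1, Klre1, Nkg7, Prf1 and Tbx21 lie above the line, Klrb1c and Eomes lie below it, as do most T cell markers, and Klrd1 lies just below it.

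Ratios between genes of 1 library are free of the scaling of that library. In bulk RNA, fewer cells of a type and less RNA of a gene per cell cannot be told apart. The ratio of Gzma to Nkg7 was 3.36 to 5.00 in the deficient libraries and 0.784 to 2.36 in WT, with no overlap, and WT replicate 5 had the 2.36. The ratio of Gzmb to Nkg7 was 0.682 to 1.07 against 0.0645 to 0.572, again without overlap and with WT replicate 5 the highest WT library. The ratio of Eomes to Nkg7 ran the other way, at 0.197 to 0.273 against 0.601 to 1.28. For Prf1 (0.291 to 0.476 against 0.225 to 0.794), Klrb1c (0.134 to 0.287 against 0.206 to 0.676) and Klre1 (0.426 to 0.691 against 0.509 to 2.85) the groups overlapped. These separations depend on the reference gene, since with Klrk1 in place of Nkg7 the groups overlapped for Gzma, Gzmb and Eomes. The ratios to Klrk1 were 0.393 to 0.606 against 0.0168 to 0.454 for Gzma and 0.0790 to 0.110 against 0.00103 to 0.110 for Gzmb. For Eomes they were 0.0188 to 0.0315 against 0.0139 to 0.116, and WT replicate 5 was the highest WT library in each. Ratios to Nkg7 in WT replicates 1 to 4 rest on few reads, since Nkg7 had 31 to 102 counts there.

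**Figure D4:**
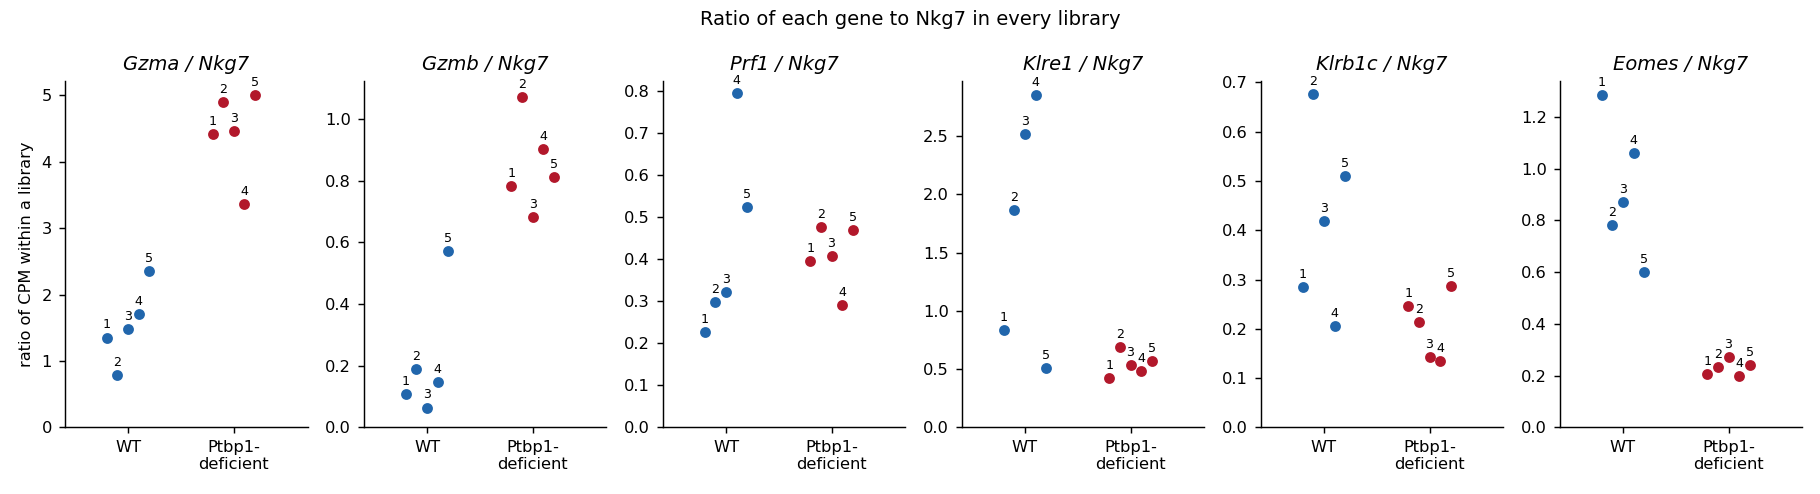
Ratio of the CPM of 6 genes to that of Nkg7 in each library, on linear axes from 0. Points are libraries numbered by replicate, WT in blue and Ptbp1-deficient in red. The Gzma and Gzmb ratios are higher in all deficient libraries and the Eomes ratio is lower in all of them, while the Prf1, Klre1 and Klrb1c ratios overlap.

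The genes whose profile over the 10 libraries was most like the mean profile of the 10 genes were found among 11541 genes of at least 1 CPM by the root mean square difference of log2 CPM, each gene centred on its own mean. They were Ncr1 (0.289), Baiap3 (0.298), Thy1 (0.328), Pacsin1 (0.368), Tgfb3 (0.400) and Klrg1 (0.446). The 10 genes themselves ranged from 0.432 (Klre1) to 1.67 (Gzmb), so none of them was as close to their own mean as the first 5. Ncr1, which encodes the NK receptor NKp46, stood at 5.92 ± 1.83 CPM in the deficient libraries and 1.37 ± 1.30 in WT. With each profile centred within genotype, which removes the genotype difference, the closest were Cd247 (0.156), Atp2b4 (0.166), Cd96 (0.172), Klrc2 (0.187), Baiap3 (0.196) and Ctsw (0.213). Cd247, the CD3 zeta signalling chain that NK and T cells share, stood at 2.16 ± 0.454 and 2.07 ± 1.77 CPM, with 5.16 CPM in WT replicate 5.

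Other genes of the NK program were taken from lists chosen by role, and each count is set beside the background of 21.9% higher and 23.1% lower, with a median log2 fold change of -0.03 over all genes. Of 31 other NK receptor genes tested, 8 were higher and 2 lower, with a median of 0.21. Klrg1, an inhibitory receptor of mature NK and effector T cells, rose by 2.93 on the log2 scale (SE 0.391), to 4.10 ± 1.55 CPM against 0.535 ± 0.357 in WT (adjusted p = 0.00010). Klrg2 rose from 1.12 ± 0.228 to 2.49 ± 0.295 CPM (adjusted p = 0.00017), and Ncr1 also rose (adjusted p = 0.0051). Slamf7 rose from 363 ± 18.5 to 415 ± 14.8 CPM (adjusted p = 0.0046). Slamf6, its relative on NK and T cells, fell from 30.1 ± 5.27 to 20.4 ± 1.99 CPM (adjusted p = 0.0015). The other 4 higher genes were Klrb1f, Klrc2, Cd160 and Tigit, and the other lower gene was Fcgr3. Klrc1, which encodes the NKG2A partner of CD94, had 4.70 ± 2.34 and 1.65 ± 1.82 CPM and was not called (adjusted p = 0.072). Its deficient libraries had 3.35 to 8.84 CPM, WT replicates 1 to 4 had 0.271 to 1.73 CPM, and WT replicate 5 had 4.73 CPM. The number of higher genes was 14 without WT replicate 5, and 5 without deficient replicate 1 or deficient replicate 5.

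Of 22 granule and effector genes tested, 8 were higher and 3 lower, with a median of 0.15. Serpinb6b and Serpinb9, whose products inhibit granzymes, had the smallest adjusted p of the list. Serpinb6b rose by 1.75 on the log2 scale (SE 0.125), to 251 ± 38.1 CPM against 74.9 ± 11.4 in WT (adjusted p = 1.2e-06), and Serpinb9 rose to 129 ± 26.1 against 54.0 ± 7.02 CPM (adjusted p = 1.8e-05). Tnfsf10, which encodes the death ligand TRAIL, rose from 5.21 ± 0.606 to 8.64 ± 0.583 CPM (adjusted p = 9.3e-05), and Gnptab rose from 85.5 ± 6.79 to 109 ± 7.52 CPM (adjusted p = 0.00091). Ifng, Ctsw, Rab27a and Stx11 were the other higher genes. The lower genes were Gzmm, which encodes another granzyme, at 1.19 ± 0.220 against 1.91 ± 0.605 CPM, Ctsc, whose protease matures granzymes, at 202 ± 8.22 against 277 ± 59.8 CPM, and the chemokine gene Ccl5. The number of higher genes was 13 without WT replicate 5, and 5 without WT replicate 2 or deficient replicate 4. DESeq2 called 5 lower, and 1 was called lower without WT replicate 1, deficient replicate 1 or deficient replicate 3.

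Of 22 adaptor and signalling genes tested, 7 were higher and 2 lower, with a median of 0.21. Hcst, which encodes the DAP10 adaptor that NKG2D requires, stood at 9.56 ± 0.716 against 8.36 ± 0.780 CPM and was not called (adjusted p = 0.087). Tyrobp, which encodes its other adaptor DAP12, rose from 403 ± 28.6 to 447 ± 10.1 CPM (adjusted p = 0.031). The kinase gene Syk fell by 0.64 on the log2 scale (SE 0.045), to 347 ± 10.3 CPM against 541 ± 27.3 in WT (adjusted p = 1.1e-06). Plcg2 rose from 318 ± 16.0 to 414 ± 12.0 CPM (adjusted p = 3.7e-05), Vav3 from 45.2 ± 2.93 to 58.5 ± 2.47 CPM (adjusted p = 0.00012) and Plcg1 from 56.9 ± 2.52 to 66.7 ± 3.66 CPM (adjusted p = 0.0021). The number of higher genes was 16 without WT replicate 5.

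Of 33 transcription and cytokine genes tested, 7 were higher and 11 lower, with a median of -0.14. Tcf7, which encodes TCF-1, fell by 1.20 on the log2 scale (SE 0.080), to 31.6 ± 3.06 CPM against 72.3 ± 6.85 in WT (adjusted p = 7.6e-07). S1pr5, a sphingosine-1-phosphate receptor that lets NK cells leave tissues, fell by 1.86, to 2.58 ± 0.353 CPM against 9.35 ± 1.83 in WT (adjusted p = 2.9e-06). Unlike Ncr1, it showed no excess in WT replicate 5 (9.94 CPM, where WT replicates 1 to 4 had 6.89 to 11.9). Il18, a cytokine that activates NK cells, fell from 31.9 ± 5.13 to 14.4 ± 2.09 CPM (adjusted p = 2.1e-05). Cxcr3, a chemokine receptor gene, rose from 13.7 ± 2.02 to 31.2 ± 3.87 CPM (adjusted p = 7.8e-06). The number of higher genes was 11 without WT replicate 5.

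T cell transcripts were high in WT replicate 5, and no higher call was made for them between the genotypes. Of 18 T cell marker genes tested by edgeR, 0 were higher and 1 (Cd4) was lower, with a median of -0.01. At an unadjusted p under 0.05 the counts were 1 and 2, and DESeq2 called 0 and 1. WT replicate 5 was above 2 times the mean of the other WT libraries for 15 of the 18. Cd3e stood at 2.04 ± 0.582 CPM in the deficient libraries, 0.426 to 1.28 CPM in WT replicates 1 to 4 and 4.14 CPM in WT replicate 5. Without WT replicate 5, 9 of the 18 were higher, and without WT replicates 1 and 5, 10 were.

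Markers of other cell types also differed between the libraries. All 10 T cell markers were in the table. Their summed level was 37.8 to 42.7 CPM in the deficient libraries, 26.5 to 33.4 CPM in WT replicates 1 to 4 and 72.2 CPM in WT replicate 5. Cd5 was the largest contributor, and its deficient mean was 0.987 times that of WT replicates 1 to 4. For the other markers of this sum that ratio was larger, from 1.499 (Themis) to 3.79 (Trac), so Cd5 masks part of their difference. Cd3d, Cd3g, Trac, Trbc1, Trbc2 and Cd6 did not overlap between the deficient libraries and WT replicates 1 to 4, whereas Cd3e, Bcl11b and Themis did. Of 10 NK-defining markers 8 had a row. Without Klrb1c and Eomes, which are among the 10 genes described, their sum was 11.1 to 24.0 CPM, 8.77 to 15.0 CPM and 24.6 CPM. S1pr5, which fell, held 6.89 to 11.9 CPM of the sums in WT, whereas Ncr1 had 4.02 to 8.95 CPM in the deficient libraries, 0.362 to 1.44 CPM in WT replicates 1 to 4 and 3.60 CPM in WT replicate 5. Klra8, an NK receptor of the Ly49 family, had 0.654 to 3.83 CPM, 0.151 to 0.687 CPM and 3.64 CPM, and deficient replicate 5 was its highest deficient library. The NK-defining markers Klra7 and Klra9 had no row, so their levels are not known. The count table holds genes with at least 2 counts in every library, so a gene at 0 in any library would have no row. Neutrophil markers summed to 115 to 209 CPM, 91.7 to 167 CPM and 909 CPM, and basophil and mast cell markers to 1.17 to 2.91 CPM, 0.593 to 1.20 CPM and 7.88 CPM. For 5 further cell types the summed level of every deficient library was below that of WT replicate 5. Macrophage markers, which split the deficient libraries as described above, summed to 454 to 1056 CPM, 1381 to 2534 CPM and 3828 CPM, B cell markers to 322 to 382 CPM, 351 to 478 CPM and 862 CPM, and plasmacytoid dendritic cell markers to 156 to 178 CPM, 207 to 282 CPM and 499 CPM. Markers of innate lymphoid cells of types 2 and 3, of which 4 of 7 had a row, summed to 3.58 to 4.60 CPM, 6.48 to 10.1 CPM and 14.7 CPM. Within that sum Gata3, with as few as 2 counts in a library, ran the other way. It had 0.375 to 0.880 CPM, 0.0312 to 0.213 CPM and 1.60 CPM. Erythroid markers summed to 13.3 to 69.5 CPM, 23.6 to 48.6 CPM and 84.0 CPM. Within the plasmacytoid sum Pacsin1, named above for its profile, ran the other way, at 21.8 to 43.7 CPM, 3.56 to 5.62 CPM and 19.9 CPM. Cox6a2 and Ccr9 of that list overlapped between the deficient libraries and WT replicates 1 to 4, with the deficient range reaching higher. The ranges were 7.58 to 12.0 CPM against 3.72 to 9.88 CPM for Cox6a2 and 16.6 to 25.6 CPM against 12.7 to 18.9 CPM for Ccr9. The part of these cell types in the levels of the 10 genes was not tested.

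The 4 receptor genes lie in the natural killer gene complex on chromosome 6 (GRCm38): Klrb1c at 128778485 to 128789215 on the minus strand, Klre1 at 129577905 to 129585827 and Klrd1 at 129591782 to 129598775 on the plus strand, and Klrk1 at 129610323 to 129623864 on the minus strand. The interval from Klrb1c to the last Klra gene, 128778485 to 131247362, held 45 genes of the count table, of which 44 were tested. By edgeR 7 were higher, 6 were lower and 31 were not called, beside 21.9% higher and 23.1% lower over all genes tested. Neighbours did not share a direction. Klrd1 lies between Klre1, 5955 bp away, and Klrk1, and its mean was lower while theirs were higher. Clec9a, a receptor gene of type 1 conventional dendritic cells in the same interval, was at 341 CPM in the deficient libraries and 215 in WT and was called higher, and Clec7a was at 44.7 and 62.9 CPM and was called lower. Genes of the Klra, Klrb1 and Klrc families are closely related copies and reads that were not unique were kept out of the gene rows, so the levels of Klrb1c, Klrc1, Klrc2, Klra4 and Klra8 are uncertain. The same holds for Gzmb, which has close relatives on chromosome 14.

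**Figure D5:**
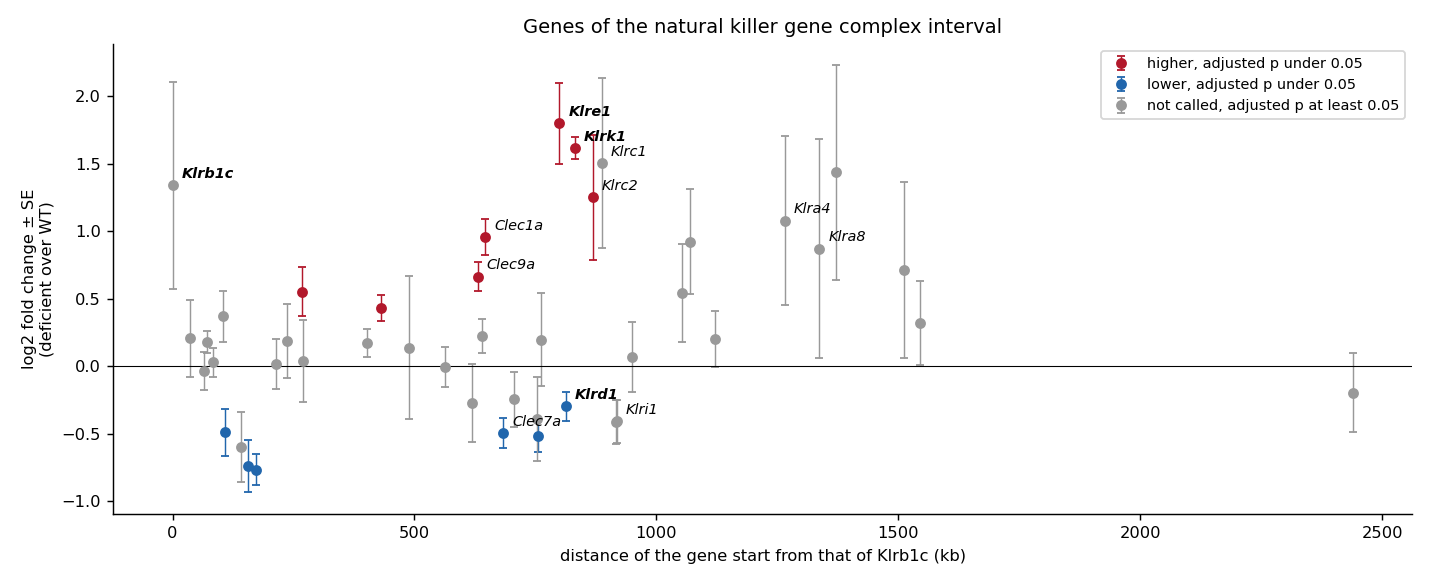
Log2 fold change, deficient over WT, with its SE for the tested genes of the chromosome 6 interval, by distance of the gene start from that of Klrb1c in kb. Colours give edgeR calls at an adjusted p under 0.05. Klre1 and Klrk1 are higher on either side of Klrd1, which is lower, and most genes of the interval are not called.

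The other 6 genes lie outside this complex, and their nearest genes with a row in the count table are given, which need not be adjacent. Gzma (chromosome 13, 113093825 to 113100981, minus strand) lies between Dhx29, which was called higher at 36.9 ± 1.25 against 32.1 ± 1.88 CPM, and Snx18, 491198 bp away, which was called lower at 26.2 ± 2.12 against 44.9 ± 6.86 CPM. Nkg7 (chromosome 7, 43437073 to 43438249, plus strand) lies between Siglecg, called lower at 230.1 ± 26.0 against 324 ± 14.8 CPM, and Etfb, called higher at 14.9 ± 0.914 against 12.3 ± 1.04 CPM. Tbx21 (chromosome 11, 97098071 to 97115331, minus strand) has Tbkbp1 on 1 side, called higher at 64.2 ± 3.45 against 54.0 ± 6.49 CPM. On its other side the pseudogene Gm11573, 745 bp away, was not called (0.688 ± 0.191 against 0.646 ± 0.173 CPM). Eomes (chromosome 9, 118478212 to 118486132, plus strand) has Golga4 on 1 side, called lower at 106 ± 3.70 against 115 ± 3.27 CPM. Gm17399 on the other side of Eomes, 307836 bp away, was not called. For Gzmb (chromosome 14, 56258838 to 56262260, minus strand) the nearest genes with a row were Mcpt8, 173565 bp away, and Rnf17, 140321 bp away, and neither was called. The granzyme genes Gzmc to Gzmg and Gzmn had no row under these symbols, so their levels are not known. The nearest genes of Prf1 (chromosome 10, 61297833 to 61304680, plus strand) were not called either. Adamts14, next to Prf1, had 4.63 ± 1.63 and 1.68 ± 2.54 CPM with 6.17 CPM in WT replicate 5.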

How the data were processed

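Per the submitters' processing notes, the authors used HISAT2, StringTie and DESeq2, without versions. The same notes list the build GRCh38, although the deposited identifiers are those of mouse genes in Ensembl. Not given in the sources used here: which tool counted the reads, and whether by strand; a gene's reads may thus include those of an antisense partner. The deposited table of unnormalized counts per gene has at least 2 counts in every library for each of its 19178 genes. Rows that name no gene stayed out of library sizes: reads outside genes were 17.2% to 22.2% of a library, ambiguous reads 1.78% to 1.94%, and those aligned to several places 4.51% to 5.08%. The authors' FPKM values cover 11978 rows, none below 1.00 in any library; values of 10 identifiers that occur more than once were added up. Symbols came from GENCODE M21 on GRCm38, which matched 19049 identifiers.

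Counts were filtered with filterByExpr, which removed 930 genes and left 18248, scaled by TMM and compared by edgeR's quasi-likelihood test (R 4.3.3 with edgeR 4.0.16 and limma 3.58.1) with genotype as the only term. A gene was called at a Benjamini-Hochberg adjusted p under 0.05 over all genes tested. The SE of a log2 fold change is its size over the square root of F. Profiles and deviations used log2 CPM with a prior count of 2, and CPM per kb used the union of annotated exons.

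The 10 genes, the other lists, the markers and the tests were chosen with earlier results of these data known. Named genes are the 10, Ptbp1, up to 4 called genes of smallest adjusted p per list, the 6 genes of closest profile under each centring and the neighbours. Ncr1, Klrc1, Hcst, Tyrobp, Gzmm, Ctsc, Cd3e, Klra8, Clec9a and Clec7a were added after their values were seen. The same holds for Xcr1, Irf8, Sirpa, Itgam, Irf4, Batf3, Gata3 and the genes named to complete a short count. The alternatives were DESeq2 1.42.0, RLE or upper-quartile normalization in place of TMM, a filter at 1 CPM in 5 libraries or none, a replicate block, limma on log2(FPKM + 1), also for genes whose mean is at least 2 FPKM, limma on log2(FPKM + 0.1), and fits without each library, without WT replicates 1 and 5 and without deficient replicates 1 and 2.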

Additional observations from a re-analysis of the deposited data

Results flagged for a closer look

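In 40 groups of 5 libraries (10 genes and 10 marker sums in 2 genotypes), 13 had 1 library far from the other 4 by Dixon's criterion, which chance meets in about 1 in 20 groups; 11 of the 13 were WT replicate 5. Because the quantities share libraries, these are not separate events.

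For the cytotoxic genes, WT replicate 5 stood apart from WT replicates 1 to 4 in Klre1 (3.71 CPM, others 1.18 to 1.63), Klrb1c (3.72 CPM, others 0.118 to 0.484) and Gzma (17.2 CPM, others 0.562 to 2.15). It did so too in Gzmb (4.17 CPM, others 0.0302 to 0.172), Prf1 (3.82 CPM, others 0.151 to 0.454) and Nkg7 (7.29 CPM, others 0.467 to 1.59). Deficient replicate 5 stood apart in Klre1, at 8.62 CPM where the others had 5.71 to 6.05.

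Among the marker sums, WT replicate 5 stood apart for T cells (72.2 CPM, others 26.5 to 33.4), B cells (862 CPM, others 351 to 478) and plasmacytoid dendritic cells (499 CPM, others 207 to 282). The same library stood apart for basophils and mast cells (7.88 CPM, others 0.593 to 1.20) and for neutrophils (909 CPM, others 91.7 to 167). Deficient replicate 3 stood apart for basophils and mast cells, at 2.91 CPM where the others had 1.17 to 1.58.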

How the results depend on the processing

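The sign of each of the 10 log2 fold changes was the same in every alternative that gave a value. Their ranges were 1.50 to 1.69 for Klrk1, -0.45 to -0.23 for Klrd1, 1.66 to 2.23 for Klre1, 1.05 to 3.28 for Klrb1c, 3.32 to 6.15 for Gzma, 3.11 to 6.95 for Gzmb, 1.99 to 4.16 for Prf1, 2.22 to 4.37 for Nkg7, 0.62 to 0.87 for Tbx21 and 0.52 to 2.40 for Eomes. Leaving out 1 library, 6 to 9 of the 10 were higher and 0 to 1 lower, and counts over all genes were 3558 to 4143 and 3667 to 4225. Other NK receptors gave 5 to 14 higher and 2 to 3 lower, granule genes 5 to 13 and 1 to 4, adaptors 6 to 16 and 2 to 2, transcription genes 6 to 11 and 11 to 12, T cell markers 0 to 9 and 1 to 1, and ligands 4 to 5 and 1 to 3. Without WT replicates 1 and 5 the higher counts were 13 for NK receptors, 17 for adaptors, 12 for transcription genes and 10 for T cell markers. Without deficient replicates 1 and 2, NK receptors gave 5 higher and 1 lower, and Prf1 was not called.

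The FPKM table has fewer genes. With pseudocounts of 1 and 0.1 and with the mean of at least 2 FPKM, higher genes numbered 2419, 2407 and 2384 in all. In each of these fits 2 of the 3 listed cytotoxic genes were higher, with 0 NK receptors, 2 adaptors and 4 transcription genes, and granule genes numbered 4, 3 and 3. At an unadjusted p under 0.05 limma gave 0, 0 and 1 of 15 NK receptors as higher and 4, 4 and 4 as lower, and 2 were lower after adjustment in each fit. Upper-quartile normalization gave 3456 higher and 4845 lower genes against 3998 and 4216 by TMM, and 5 granule genes lower, as did DESeq2.

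The labels number the libraries 1 to 5 in both genotypes without saying what a number stands for. Same-numbered libraries did not deviate together (correlations -0.0962 to 0.1136 across genes, and only replicate 5 correlated best with its own number). With that number as a replicate block, 9 of the 10 were higher, Klrb1c (log2 fold change 2.21) and Eomes (1.29) among them, as were 12 NK receptors, 1 T cell marker and 3768 genes in all, with 3770 lower. The 7 genes other than Klrk1, Klrd1 and Tbx21 had 2 to 138 counts in each of WT replicates 1 to 4, so their WT levels are the least precise.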

Other observations

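Ligands of NK receptors were measured on the same libraries. Of 11 ligand genes tested, 4 were higher and 2 lower in the deficient libraries by edgeR, with a median log2 fold change of 0.18. Tnfrsf14, which encodes the HVEM ligand of CD160 and BTLA, rose from 46.6 ± 1.82 to 71.7 ± 7.22 CPM (adjusted p = 1.8e-05). H2-T23, which encodes the Qa-1 ligand of the CD94 receptors, rose from 597 ± 28.3 to 721 ± 24.4 CPM (adjusted p = 0.00051). Cd48, which encodes the ligand of 2B4, rose from 111 ± 2.87 to 130 ± 5.29 CPM (adjusted p = 0.00068), and Lgals9 rose from 32.2 ± 7.07 to 51.5 ± 5.67 CPM (adjusted p = 0.0013). Pvr, which encodes a ligand of DNAM-1 and TIGIT, fell from 19.8 ± 2.94 to 12.7 ± 1.59 CPM (adjusted p = 0.00067), and Clec2i fell from 73.0 ± 14.1 to 52.0 ± 13.0 CPM (adjusted p = 0.038). The NKG2D ligand genes H60a, H60c and Raet1a to Raet1e had no row under these symbols, so their levels are not known. The number of lower ligand genes was 1 without any 1 of WT replicates 1 and 5 and deficient replicates 3, 4 and 5. It was 3 without WT replicate 2, and also with DESeq2, upper-quartile normalization and the replicate block.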
